A study of Arabidopsis thaliana with 12 samples.

Results

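The set described here holds 100 genes whose transcripts were lower in the Arabidopsis mutant amp1-13 than in wild type, both in solvent and in the compound hyperphyllin. They were chosen from the measured levels. For each of 16554 genes with a probe set of its own (1 probe set per gene, that with the highest mean), the gap was taken in each medium as the lowest of the 3 wild-type arrays minus the highest of the 3 amp1-13 arrays on the log2 scale. The smaller of both gaps was the score, and the 100 highest scores were kept. The genes iqd21, IQD18 and AT2G41090 were to be left out, but they ranked 1031, 571 and 2328, so none of them was among the 100. The genotype difference therefore defines the set and is given below as a description, without a test.

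The AMP1 protein resembles carboxypeptidases and sits at the endoplasmic reticulum. Its loss is known to enlarge the shoot meristem, to speed up leaf formation and to raise cytokinin. Hyperphyllin, a synthetic compound, is known to mimic traits of amp1 plants when given to wild type. A gene that is lower in the mutant in both media is one whose wild-type level stayed above that of the mutant in the same medium. Treated wild type need not be above the untreated mutant.

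The samples were whole seedlings of the Col-0 ecotype, 10 days old, grown in liquid medium. All 4 groups received DMSO at 1%, which is the solvent of the compound. The groups were wild type and amp1-13, each with the solvent alone or with hyperphyllin at 30 µM, and each group was measured on 3 arrays that the labels call biological replicates; whether they came from separate cultures is not said. The mutant is represented by 1 allele, and AMP1 itself was not analysed here. In whole seedlings, fewer cells of a type and less RNA per cell cannot be told apart.

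Array medians over the named probe sets lay between 4.13 and 4.18 on the log2 scale. DMSO arrays 2 and 3 of wild type stood apart on principal component 1 (scores 43.9 and 47.7), while DMSO array 1 of wild type (-9.8) lay among the arrays of the other groups, which ran from -28.1 to 0.8. Counts of calls, and the differences that turn on DMSO array 1, are given with and without it. Of 82 marker and pathway genes written in 11 lists, 22 were measured, and 0 of them belonged to the 100 genes. The 3 measured photosynthesis genes had a mean level between 9.54 and 10.10 on every array. The 2 measured root hair genes lay between 4.11 and 6.28. The 2 measured shoot meristem genes, CLV3 and LAS, were below the median of all genes. The mean of the 7 measured auxin response genes was 6.27 to 7.82 in DMSO-treated wild type against 5.73 to 6.44 in DMSO-treated amp1-13. With hyperphyllin it was 6.66 to 6.82 in wild type against 6.13 to 6.69 in amp1-13. Between the genotypes, 1 of the 22 genes passed the test in a medium, GH3.17, which encodes an enzyme that conjugates auxin (0.76 higher in amp1-13 with hyperphyllin, limma adjusted p = 0.036). Of the 22, 17 passed in at least 1 medium when DMSO array 1 of wild type was left out. In DMSO 10 were then lower in amp1-13 (8.11% of all probe sets), among them the other 6 auxin response genes and both root hair genes. Another 3 were higher. With hyperphyllin 3 were lower (1.54% of all probe sets) and 3 higher, CLV3 and LAS among the higher. The shares of all probe sets called higher, or called in at least 1 medium, are not given here. The lists were chosen with earlier results of these data known, so nothing is read from these counts. The part of the seedling's makeup in the levels of the 100 genes was not tested.

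All 100 genes had a score above 0, so the arrays of the genotypes did not overlap in either medium. This held for 239 of all 16554 genes (1.44%), and for 236 of the 20904 probe sets without a gene name (1.13%). The scores of the 100 ran from 0.43 to 0.049 with a median of 0.098. The last genes inside the limit were AT5G37250, AT2G47710 and AT1G02570. Just outside were AT3G16270 and AT1G76780 with AT3G07440, whose scores were 0.049, 0.048 and 0.047, so the limit cuts through genes of nearly equal score. In 50 genes the DMSO gap was the smaller and in 50 the hyperphyllin gap.

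In 52 of the 100 genes all 6 wild-type arrays also lay above all 6 amp1-13 arrays, whatever the medium, against 98 of all genes (0.592%). In the other 48 at least 1 wild-type array in a medium was no higher than an amp1-13 array in the other medium. In AT5G62280, for instance, DMSO array 1 of wild type (6.47) was below hyperphyllin array 3 of amp1-13 (6.57). The mean of hyperphyllin-treated wild type was above the mean of DMSO-treated amp1-13 in 97 genes. All 3 of these wild-type arrays lay above all 3 of these mutant arrays in 76 genes. The shares over all genes were not counted. The rule set wild type above amp1-13 within each medium, so high counts here are partly built in and nothing is read from them.

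**Figure D1:**
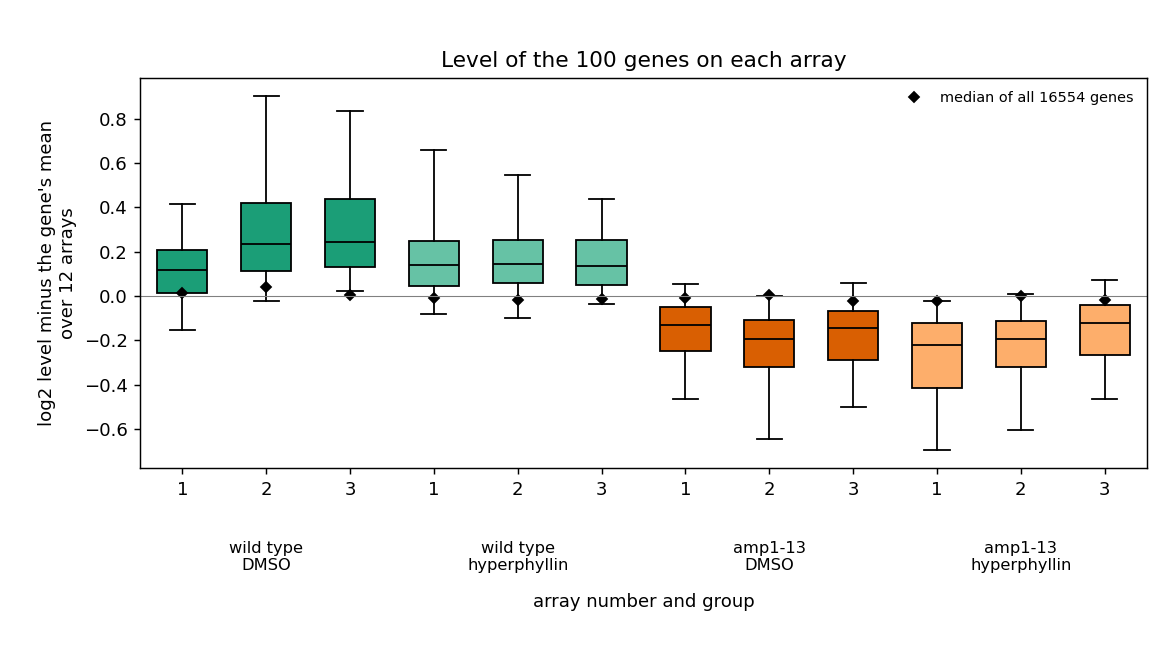
Level of each of the 100 genes on the 12 arrays, as the log2 level minus the gene's mean over all arrays; boxes span the quartiles with the median, whiskers the central 90% of genes, and diamonds the median of all 16554 genes. The medians of the 6 wild-type arrays lie between 0.12 and 0.24 and those of the 6 amp1-13 arrays between -0.22 and -0.12, a separation the choice of the genes fixes, and DMSO array 1 is the lowest wild-type array.

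In DMSO the wild-type mean exceeded the amp1-13 mean by 0.14 to 1.87 (log2) across the 100 genes, with a median of 0.37. With hyperphyllin the excess was 0.12 to 1.36 with a median of 0.32. Many differences were small: 29 genes in DMSO and 42 with hyperphyllin differed by less than 0.3. At least 2-fold differences were found for 5 genes in DMSO and for 3 with hyperphyllin, and these 3, FD, AT5G57760 and AT5G62280, were the same in both media. The excess was the larger in DMSO for 66 genes and the larger with hyperphyllin for 34. Without DMSO array 1 of wild type these counts were 71 and 29. The median difference of amp1-13 from wild type in DMSO was then -0.41. AT1G14642 (-1.08), AT4G27900 (-1.30) and AT5G44910 (-1.02) then also differed at least 2-fold in DMSO.

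Of the genes, 11 have a name of their own, and 89 carry a locus code only, for which no role is given here. All 100 are listed as protein-coding, as are 16413 of the 16418 genes with a listed type.

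Among the transcription factor genes, FD had the highest score of the set. FD encodes a bZIP factor that acts with the mobile flowering signal FT at the shoot apex. Its log2 levels were 5.52, 6.28 and 6.02 in DMSO-treated wild type (arrays 1, 2 and 3) and 5.98, 5.91 and 5.61 in hyperphyllin-treated wild type. In amp1-13 they were 5.09, 4.50 and 4.93 in DMSO and 4.88, 4.36 and 4.94 with hyperphyllin. All 6 wild-type arrays lay above all 6 mutant arrays, DMSO array 1 being the lowest of the wild type. The log2 difference of amp1-13 from wild type was -1.10 ± 0.22 in DMSO and -1.11 ± 0.22 with hyperphyllin (SE of the limma fit, 3 arrays per group). These were nearly the same in both media, but without DMSO array 1 of wild type the difference in DMSO was -1.31. The difference of hyperphyllin from DMSO was -0.10 ± 0.22 in wild type and -0.11 ± 0.22 in amp1-13, and neither passed (limma adjusted p = 0.848 and 0.966). In wild type it was -0.31 without DMSO array 1 (limma adjusted p = 0.386).

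The other bZIP factor gene of the set, bZIP44, had levels of 7.42, 7.43 and 7.64 in DMSO-treated wild type and 7.36, 7.41 and 7.53 with hyperphyllin. The mutant levels were 7.24, 6.78 and 7.25 in DMSO and 6.71, 6.82 and 6.93 with hyperphyllin. The wild-type arrays were all higher, and the mutant arrays with hyperphyllin lay lowest apart from DMSO array 2. SHN2, a member of the SHINE clade of AP2/ERF factors known for control of the cuticle, was dim. It stood at 3.026, 3.103 and 2.848 in DMSO-treated wild type against 2.459, 2.456 and 2.564 in amp1-13, and at 2.670, 2.903 and 2.723 against 2.005, 2.564 and 2.566 with hyperphyllin. All 6 mutant arrays were below the 6 wild-type arrays.

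SRS3 belongs to the SHI-related family of zinc-binding regulators, some of which promote auxin synthesis. It was also dim, at 1.90, 2.14 and 2.52 in wild type with DMSO and 2.45, 2.50 and 2.79 with hyperphyllin. In amp1-13 it lay within a narrow band, 1.80, 1.75 and 1.74 in DMSO and 1.65, 1.79 and 1.84 with hyperphyllin. The genotype difference was -0.42 ± 0.15 in DMSO and -0.82 ± 0.15 with hyperphyllin, and -0.56 in DMSO without DMSO array 1 of wild type. The treated wild-type arrays were the highest but for the overlap with DMSO array 3. Hyperphyllin minus DMSO was 0.40 ± 0.15 in wild type, which did not pass (limma adjusted p = 0.185). Without DMSO array 1 it was 0.255 (limma adjusted p = 0.266).

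Among genes of scaffold proteins, TRM19 encodes a member of the TON1 recruiting motif family, which is linked to the cortical microtubules. Its levels in wild type were 7.19, 7.22 and 7.33 with DMSO and 7.39, 7.52 and 7.33 with hyperphyllin. In amp1-13 they were 7.04, 6.80 and 7.06 with DMSO and 7.16, 7.02 and 7.17 with hyperphyllin. Both genotypes had their higher mean with hyperphyllin, and every wild-type array was above every mutant array by a margin of at least 0.02. IQD20 encodes a protein of the IQ-domain family, whose members bind calmodulin. It stood at 3.65, 3.96 and 3.90 in DMSO-treated wild type against 3.31, 3.38 and 3.56 in the mutant, and at 3.54, 3.69 and 3.69 against 3.26, 3.42 and 3.28 with hyperphyllin. Its highest mutant array in DMSO overlapped with the lowest wild-type array with hyperphyllin.

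Gene families were counted by symbol, so family genes under another symbol or a locus code are not in the counts. IQD20 was the 1 gene of 17 measured genes with an IQD symbol that belonged to the set. Of the 17, 8 had lower means in amp1-13 in both media (47.1%), against 5421 of all 16554 genes (32.7%), and 3 had higher means in both. The median difference of the 17 was -0.06 in DMSO and -0.08 with hyperphyllin. By symbol, lower means in both media were also found for 7 of 15 TRM genes, 5 of 17 bZIP genes and 8 of 21 CYP71 genes. FD is not among these bZIP genes. Each family count includes a gene of the set, which is lower by choice, so nothing is read from these counts.

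Of the enzyme genes, UGT72B3 and UGT73B2 encode UDP-dependent glycosyltransferases, and UGT73B2 is known to act on flavonols. UGT73B2 levels were 3.58, 3.79 and 4.29 in wild type with DMSO and 4.32, 4.25 and 3.68 with hyperphyllin. In the mutant they were 3.48, 3.38 and 3.25 with DMSO and between 3.03 and 3.35 with hyperphyllin. The wild-type arrays were spread widely, and the lowest of them was still above the highest mutant array. The difference was -0.51 ± 0.20 in DMSO and -0.86 ± 0.20 with hyperphyllin, and -0.665 in DMSO without DMSO array 1 of wild type.

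UGT72B3 had wild-type levels of 5.54, 5.53 and 5.39 with DMSO and 5.35, 5.69 and 5.56 with hyperphyllin. In amp1-13 it had 5.26, 5.17 and 5.29 with DMSO and 5.05, 4.98 and 4.77 with hyperphyllin. Its difference of -0.25 ± 0.11 in DMSO stood beside one of -0.60 ± 0.11 with hyperphyllin, where the mutant arrays were lowest. The levels of CYP71B23, a cytochrome P450 gene, were 6.37, 6.52 and 6.66 with DMSO and 6.60, 6.39 and 6.26 with hyperphyllin in wild type. In the mutant they were 6.27, 6.24 and 6.14 with DMSO and 5.53, 5.93 and 5.91 with hyperphyllin. Here too the 3 mutant arrays with hyperphyllin were the lowest of all 12. Hyperphyllin minus DMSO in amp1-13 was -0.43 ± 0.13 for CYP71B23 and -0.31 ± 0.11 for UGT72B3, and neither passed the test (limma adjusted p = 0.442 and 0.548). Of the 51 measured genes with a UGT symbol, 2 belonged to the set, and 15 (29.4%) had lower means in amp1-13 in both media. The 15 include the 2 of the set, which are lower by choice, so nothing is read from this count.

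CYP59, which is a cyclophilin gene despite the prefix it shares with the P450 genes, had 7.25, 6.83 and 6.76 with DMSO and 6.98, 6.77 and 6.82 with hyperphyllin in wild type. In the mutant it had 6.63, 6.66 and 6.52 with DMSO and 6.69, 6.58 and 6.70 with hyperphyllin. Here DMSO array 1 was the highest of the wild type, unlike in FD. CW7, for which no role is given here, differed by -0.35 ± 0.12 in DMSO and -0.32 ± 0.12 with hyperphyllin.

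**Figure D2:**
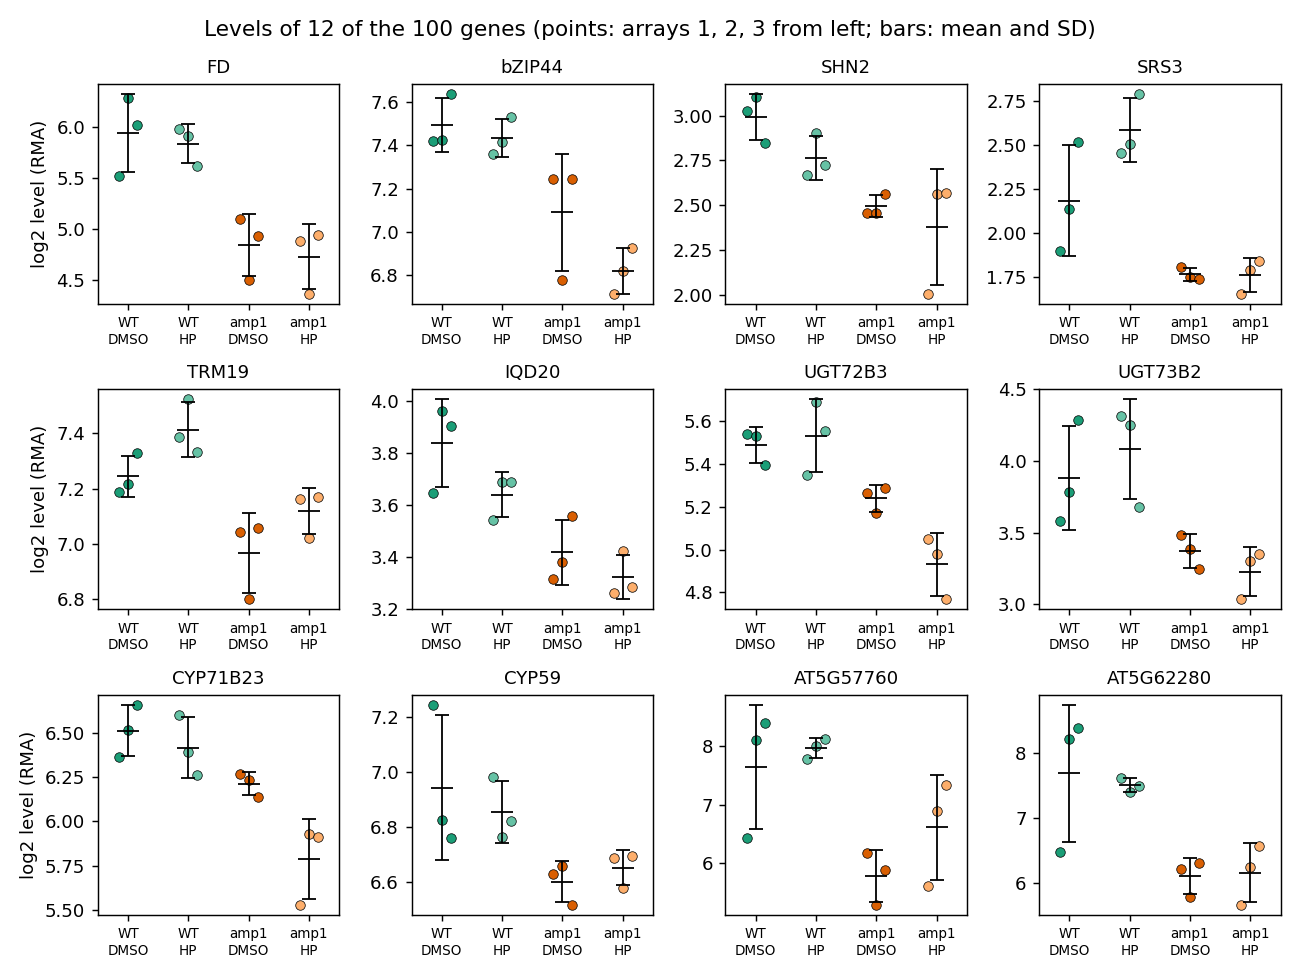
Log2 levels of 10 genes with a name and of the locus-code genes AT5G57760 and AT5G62280 in wild type (WT) and amp1-13 with DMSO or hyperphyllin (HP); points are single arrays and bars the mean and SD of 3 arrays. In each panel the wild-type points lie above the mutant points of the same medium. In FD, SRS3, TRM19, UGT73B2, AT5G57760 and AT5G62280 DMSO array 1 is the lowest wild-type point.

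The widest differences of the set belonged to a pair of genes with a locus code only. AT5G57760 had levels of 6.42, 8.11 and 8.39 in DMSO-treated wild type against 6.17, 5.29 and 5.87 in the mutant, and 7.78, 8.01 and 8.12 against 5.60, 6.88 and 7.34 with hyperphyllin. DMSO array 1 of wild type lay close to the mutant arrays, and the mutant arrays with hyperphyllin were spread over more than 1 log2 unit. The difference was -1.87 ± 0.50 in DMSO and -1.36 ± 0.50 with hyperphyllin, and -2.48 in DMSO without that array.

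AT5G62280 also had its lowest wild-type level on DMSO array 1, with 6.47, 8.22 and 8.40 in DMSO-treated wild type against 6.21, 5.78 and 6.31 in amp1-13. With hyperphyllin it had 7.62, 7.41 and 7.49 against 5.66, 6.24 and 6.57. The difference of -1.60 ± 0.41 in DMSO was -2.21 without DMSO array 1. AT4G27900 likewise had 6.51, 7.56 and 7.41 in DMSO-treated wild type, against 6.24, 5.96 and 6.34 in the mutant, and its difference of -0.98 ± 0.22 in DMSO became -1.30 without array 1. In each of these 3 genes array 1 was the lowest wild-type value by at least 0.5.

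AT5G28390 and AT1G32190 differed by less but with little spread. AT5G28390 had 8.70, 8.80 and 8.84 with DMSO and 8.76, 8.72 and 8.63 with hyperphyllin in wild type. In the mutant it had 8.32, 8.36 and 8.25 with DMSO and 8.15, 8.06 and 8.26 with hyperphyllin, so that no mutant array came within 0.27 of a wild-type array. AT1G32190 stood at 6.36, 6.35 and 6.34 in wild type with DMSO, close together, and at 5.67, 5.77 and 5.73 in amp1-13 with hyperphyllin. The differences with hyperphyllin were -0.55 ± 0.09 for AT5G28390 and -0.59 ± 0.10 for AT1G32190.

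The remaining genes among the 25 highest scores were AT1G48670, AT5G10040, AT2G25130, AT1G14642, AT2G28690, AT1G70209, AT1G32690, AT3G62110, AT1G17400, AT5G51930, AT1G61840, AT1G11540, AT1G58410, AT5G09340, AT5G54560, AT5G56610, AT1G80120 and AT5G44910. Their differences in DMSO ran from -1.01 (AT1G48670) to -0.28 (AT5G09340). With hyperphyllin they ran from -0.69 (AT5G54560) to -0.25 (AT5G09340).

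In the limma fit of the same contrasts, 2 of the 100 genes passed an adjusted p of 0.05 as lower in amp1-13 in DMSO, AT1G58410 and AT1G02570, against 0.0686% of all 17504 probe sets. With hyperphyllin 3 passed, AT5G28390, AT1G32190 and AT3G61700, against 0.109%. Without DMSO array 1 of wild type the counts were 53 (8.11% of all probe sets) and 20 (1.54%). Because the genes were chosen on these differences, nothing is read from the counts.

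**Figure D3:**
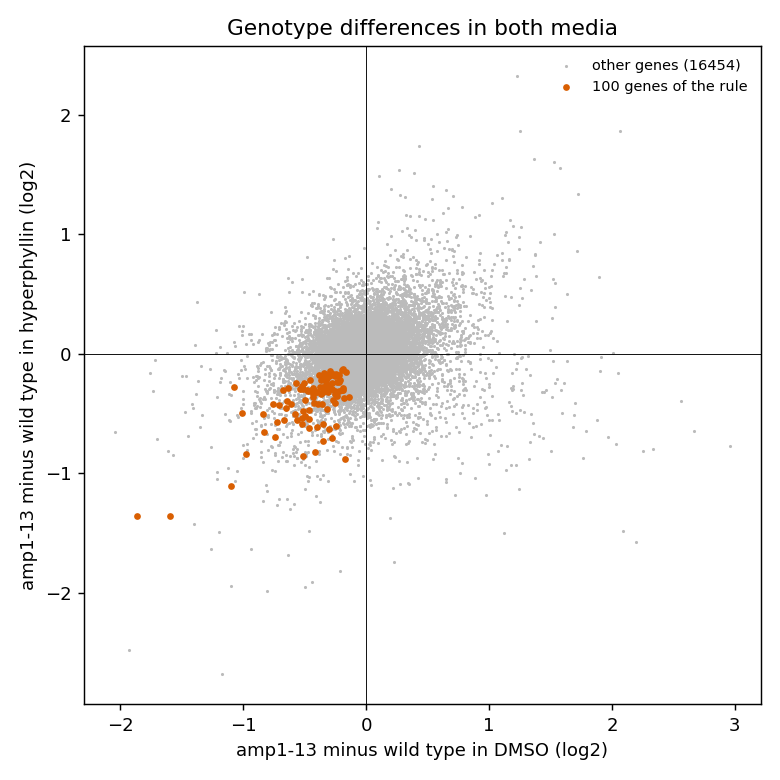
Log2 difference of amp1-13 from wild type in DMSO (horizontal) and in hyperphyllin (vertical) for each gene; orange points are the 100 genes and grey points the other 16454. The orange points lie below 0 on both axes by their choice, down to -1.87 and -1.36 in AT5G57760, and grey points with differences of similar size are those whose arrays overlapped or whose gap was smaller.

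The probe sets of the 100 genes covered a wide range of log2 intensity, which does not rank the RNA of one gene against that of another. The mean intensity over 12 arrays ran from 1.41 to 10.37 with a median of 5.47, against a median of 4.13 for all genes. Of the 100, 68 were at or above that median and 32 below it, and 8 lay below 2.27, the lower quartile of all genes. The dimmest probe sets, by wild-type mean, were those of AT3G43572 (1.49), AT5G37250 (1.82), AT5G09340 (1.91), AT5G29613 (2.00) and AT5G50220 (2.04). The brightest were those of AT3G14100 (10.44), AT5G02480 (9.25), AT5G28390 (8.74), AT5G10040 (8.51) and AT4G40050 (8.15).

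The excess of wild type in DMSO had a median of 0.33 in the 18 genes with a mean level under 3, of 0.52 in the 21 genes from 3 to 5, of 0.37 in the 38 genes from 5 to 7 and of 0.30 in the 23 genes above. The mean SD within groups had a median of 0.116 in the 100 genes against 0.155 in all genes, and a rule on gaps favours genes of little spread.

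Hyperphyllin against DMSO was a comparison that the rule did not use, although it used the same arrays. A gene that the compound had lowered in wild type to the level of treated amp1-13 could not have entered the set. The rule also favours genes of little spread within groups, which makes p-values smaller for the same difference in any contrast. The part of this in the limma counts below was not tested. In wild type 3 of the 100 genes fell with the compound (limma adjusted p under 0.05), against 0.48% of all probe sets, and 0 rose, against 1.16%. At an unadjusted p under 0.05 the counts were 14 lower and 6 higher, against 9.68% and 7.82% of all probe sets. The median log2 change was -0.08 in the 100 genes and -0.05 in all probe sets, and 66 of the 100 had a lower mean with the compound, against 59.4% of all. The median and the share of lower means thus lay close to those of all probe sets.

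The genes that fell in wild type were AT1G02570, AT1G61840 and AT1G72870. AT1G02570 had 3.48, 3.98 and 3.39 in DMSO and 2.52, 2.48 and 2.56 with hyperphyllin in wild type. In amp1-13 it had 2.26, 2.91 and 2.44 with DMSO and 2.13, 2.18 and 2.43 with hyperphyllin. The treated wild-type arrays thus lay within the range of the DMSO-treated mutant arrays, and just above the treated ones. The change was -1.09 ± 0.18 in wild type (limma adjusted p = 0.0159) and -0.29 ± 0.18 in amp1-13 (adjusted p = 0.828).

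AT1G61840 went from 5.03, 5.57 and 5.74 to 4.47, 4.40 and 4.64 in wild type and from 4.85, 4.73 and 4.83 to 4.20, 4.24 and 3.88 in amp1-13. The treated arrays were below the DMSO arrays in both genotypes, and in each medium the mutant was the lower. The change was -0.94 ± 0.17 in wild type (limma adjusted p = 0.0214) and -0.70 ± 0.17 in amp1-13 (adjusted p = 0.222). AT1G72870 had 3.43, 3.77 and 3.99 with DMSO and 3.16, 2.93 and 3.12 with hyperphyllin in wild type, a change of -0.66 ± 0.14 (adjusted p = 0.0451). In the mutant it stood at 2.93, 2.97 and 3.25 with DMSO and 2.80, 2.66 and 2.85 with hyperphyllin.

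The wild-type counts depended on single arrays. Without DMSO array 1 of wild type 14 genes fell (7.69% of all probe sets) and 2 rose (6.3%), which were AT3G61700 and AT1G77270. Without DMSO array 2 limma called 0 genes, and without DMSO array 3 it called 1. Without hyperphyllin array 1, 2 or 3 of wild type it called 0.

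AT3G61700 had 7.88, 7.58 and 7.78 in DMSO-treated wild type and 8.16, 8.38 and 8.12 with hyperphyllin, while amp1-13 had 7.45, 7.46 and 7.27 with DMSO and 7.35, 7.49 and 7.63 with hyperphyllin. Hyperphyllin minus DMSO was 0.47 ± 0.12 in wild type (limma adjusted p = 0.0657, and 0.0133 without array 1) and 0.10 ± 0.12 in amp1-13. AT1G77270 had 3.380, 3.303 and 3.422 with DMSO and 4.411, 4.137 and 3.723 with hyperphyllin in wild type. In the mutant it had 3.094, 3.242 and 3.245 with DMSO and 3.238, 2.857 and 3.535 with hyperphyllin. Its difference in wild type was 0.72 ± 0.18 (limma adjusted p = 0.0695, and 0.0356 without array 1). In both genes the 3 treated wild-type arrays were the highest of all 12.

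In amp1-13 limma called 0 of the 100 genes, against 0.0114% of all probe sets higher and 0.00571% lower. At an unadjusted p under 0.05 there were 6 higher and 8 lower, against 3.34% and 3.83%. The lowest adjusted p was that of AT1G61840 (0.222), followed by AT1G08165 (0.362), which was at -0.54 ± 0.16, and AT5G02890 (0.421), at 0.34 ± 0.11. Without DMSO array 1 of wild type AT1G61840 passed in amp1-13 (limma adjusted p = 0.0214), the 1 gene of the 100, against 0.526% of all probe sets lower.

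Averaged over the genotypes, which is a contrast orthogonal to the genotype differences in the fit, the compound lowered the same 3 genes (0.743% of all probe sets lower, 1.02% higher). AT1G61840 was at -0.82 ± 0.12 (limma adjusted p = 0.00631) and kept its call with each of the 12 arrays left out. AT1G02570 was at -0.69 ± 0.13 (adjusted p = 0.0237) and AT1G72870 at -0.47 ± 0.10 (adjusted p = 0.0426), and both lost their call with some arrays left out. AT1G02570 lost it without any of the 3 treated wild-type arrays, DMSO array 3 of amp1-13 or hyperphyllin arrays 1 and 2 of amp1-13. AT1G72870 kept it only without DMSO array 1 of wild type. At an unadjusted p under 0.05 the averaged contrast had 21 of the 100 genes lower, against 9.24% of all probe sets, and 13 higher, against 7.37%. Though orthogonal with 3 arrays in each group, this contrast is not free of the rule's preference for genes of little spread. The part of that preference in these counts was not tested. With an array left out the groups are unequal, and the contrast is no longer orthogonal to the genotype difference in that array's medium. The 3 calls became 16 when DMSO array 1 of the wild type was left out, of which 13 were lower (7.85% of all probe sets) and 3 higher (5.86%). The count fell to 1 without each of the 3 treated wild-type arrays, DMSO array 3 of amp1-13 and hyperphyllin arrays 1 and 2 of amp1-13. No share of all probe sets is given for these fits, so a general loss of calls cannot be told apart.

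**Figure D4:**
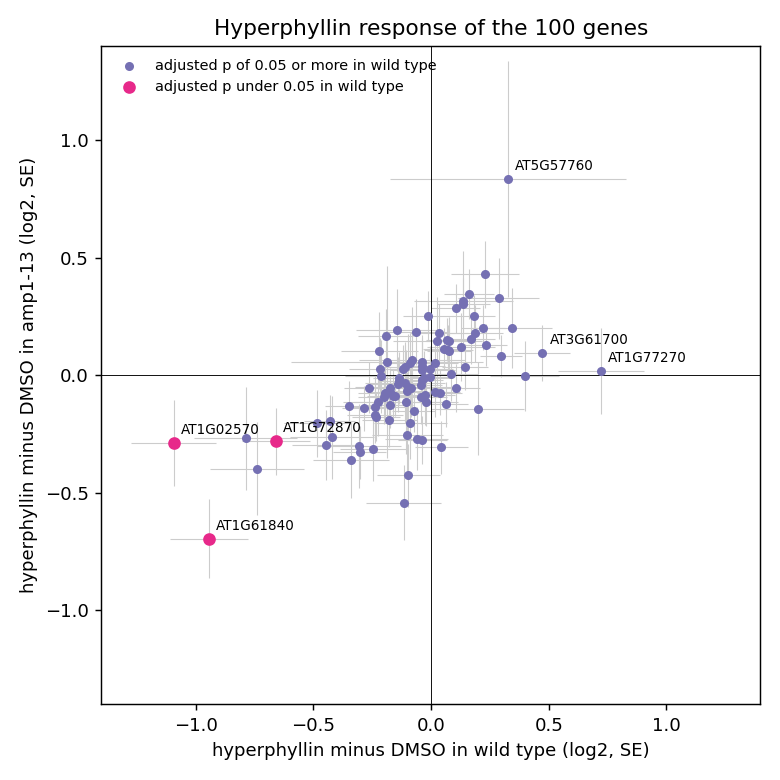
Log2 change with hyperphyllin in wild type (horizontal) and in amp1-13 (vertical) for the 100 genes, with the SE of the fit as bars; the 3 large points passed the test in wild type. Most genes lie near 0 on both axes, AT1G61840 is low on both, and AT5G57760 is at 0.83 in amp1-13 with a wide SE of 0.50.

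Array by array, all 3 treated arrays lay below all 3 DMSO arrays in wild type for 21 genes (10.9% of all genes) and above them for 10 (8.76%). In amp1-13 they lay below for 16 genes (8.68%) and above for 10 (8.17%). In both genotypes at once the treated arrays were below for 8 genes (1.55%), namely AT5G51930, AT1G61840, AT1G16500, AT1G76220, AT1G72870, AT5G11850, AT3G14100 and AT4G17860. They were above for 5 genes (1.65%), AT5G02890, AT5G02480, AT3G51020, AT5G66180 and AT2G25730. The smaller spread of the 100 genes within groups stands beside these counts, and its part in them was not tested.

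Of the 8 lower genes, AT1G76220 had 3.92, 4.74 and 4.52 with DMSO and 3.48, 3.58 and 3.90 with hyperphyllin in wild type. In amp1-13 it had 3.75, 3.70 and 3.45 with DMSO and 3.33, 3.37 and 3.00 with hyperphyllin. Its averaged change was -0.57 ± 0.14 (limma adjusted p = 0.064). AT1G16500 went from 6.38, 6.16 and 6.25 to 5.75, 6.09 and 6.04 in wild type and from 5.99, 5.78 and 5.85 to 5.51, 5.50 and 5.62 in the mutant, with an averaged change of -0.32 ± 0.08 (adjusted p = 0.0714). Neither passed with all 12 arrays, but both did without DMSO array 1 of wild type. The averaged change was then -0.69 for AT1G76220 (limma adjusted p = 0.00133) and -0.29 for AT1G16500 (adjusted p = 0.0347). Of the 5 higher genes, AT5G02480 had 9.16, 9.16 and 9.15 with DMSO and 9.28, 9.38 and 9.34 with hyperphyllin in wild type. In the mutant it had 9.02, 8.79 and 8.88 with DMSO and 9.09, 9.15 and 9.21 with hyperphyllin. Its averaged change was 0.22 ± 0.06 (adjusted p = 0.115), and 0.22 without DMSO array 1 of wild type (limma adjusted p = 0.0497). In the fit without that array, 7.85% of all probe sets passed as lower and 5.86% as higher.

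The mean was lower with hyperphyllin in both genotypes for 51 genes, against 33.8% of all genes, and higher in both for 27, against 23.9%. For the difference between the genotypes in their response, which follows from the contrasts that chose the genes and is therefore only described, limma called 0 of the 100 genes and 0% of all probe sets. At an unadjusted p under 0.05 there were 1 higher and 3 lower of the 100, against 4.06% and 4.21% of all probe sets. The difference was 0.80 ± 0.26 for AT1G02570, -0.71 ± 0.26 for AT1G77270, -0.38 ± 0.17 for AT3G61700 and -0.35 ± 0.16 for UGT72B3.

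A further probe set annotated to the same gene alone, which the rule did not use, was present for 2 of the 100 genes. For AT2G04850 it lay at a mean of 4.57, and its amp1-13 mean differed from wild type by -0.37 in DMSO and by 0.05 with hyperphyllin, against -0.31 ± 0.12 and -0.32 ± 0.12 on the chosen probe set. For AT4G01595 the further probe set was dim, at 1.99, and differed by 0.07 and -0.25, against -0.50 ± 0.16 and -0.52 ± 0.16. Each of these further probe sets had the lower mutant mean in 1 of 2 media. Another 2 probe sets are annotated to a member together with another locus, so that their signal cannot be assigned to either. The one shared by AT5G57760 and AT5G57770 had means of 5.32 ± 1.04 in wild type and 5.08 ± 0.16 in amp1-13 in DMSO, and 4.71 ± 0.50 in wild type and 4.66 ± 0.08 in amp1-13 with hyperphyllin. The wild-type arrays in DMSO were spread widely there, and the differences of the means were smaller than the -1.87 and -1.36 on the probe set of AT5G57760 alone. The one shared by AT5G38600 and AT5G38610 had 3.23 ± 0.66 in wild type and 3.02 ± 0.10 in amp1-13 in DMSO, and 2.86 ± 0.14 in wild type and 2.88 ± 0.12 in amp1-13 with hyperphyllin, where the mutant mean was not the lower.

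By locus code, 31 of the genes lie on chromosome 1, 14 on chromosome 2, 18 on chromosome 3, 13 on chromosome 4 and 24 on chromosome 5. The shares of all measured genes on these chromosomes were 26.0%, 15.4%, 20.5%, 14.9% and 23.2%. In the gene order of assembly TAIR10.1, no member was the direct neighbour of another. The closest pairs were AT4G33490 and AT4G33540, with 5 genes between them, and AT3G14100 and AT3G14172, with 9. Within 500 genes to either side of AMP1, which lies on chromosome 3, there were 5 of the 100 (5.0%), against 498 of all measured genes (3.03%), and within 1000 genes 8 (8.0%) against 6.02%. This window was chosen after the genes were known.

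Which genes made up the set depended on DMSO array 1 of wild type. It was the lowest of its group, and so set the DMSO gap, in 65 of the 100 genes, against 18 for array 2 and 17 for array 3. The median difference of array 1 from the mean of arrays 2 and 3 was -0.14 in the 100 genes and 0.00 in all genes. Leaving out an array can only raise scores, and without array 1 the score needed for the 100 highest was 0.30 and 918 genes had a score above 0. Then 10 of the 100 genes stayed among the 100 highest: FD, AT5G28390, AT5G57760, AT1G14642, AT1G70209, AT4G27900, AT5G62280, AT5G44910, UGT73B2 and SRS3. With each of the other 11 arrays left out, 67 to 82 genes stayed. The 10 genes kept without array 1 stayed in all 12 cases.

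**Figure D5:**
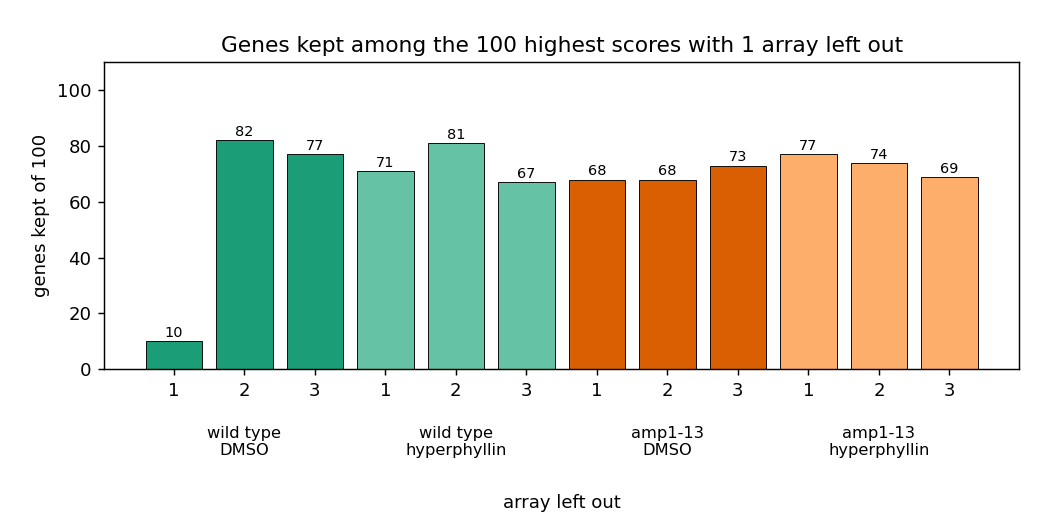
Number of the 100 genes that stayed among the 100 highest scores when the rule was applied with 1 array left out; bars are coloured by group. The count was 10 without DMSO array 1 of wild type and 67 to 82 without any other array.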

How the data were processed

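Transcripts were measured on 12 Affymetrix arrays. Each deposited table held log2 values after RMA, which the submitters' processing notes name as the authors' method; software version and probe definitions are not given in the sources used here. They ran from 0.593 to 12.73 and were used unchanged. Scanner intensities were not analysed here, so signal over background is unknown, and the number of arrays limits the precision.

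Of 38408 probe sets, 17504 had a gene in the platform annotation and were tested, 16746 of them with 1 gene and 758 with several; the latter were not named. Symbols came from that annotation, and gene order came from RefSeq, assembly TAIR10.1. With limma 3.58.1 under R 4.3.3, 1 model with 4 group means covered the 12 arrays (lmFit and eBayes; 8 residual and 3.9 prior degrees of freedom), and p-values were adjusted over all 17504 probe sets by Benjamini-Hochberg (threshold 0.05). The fit was tested on simulated data, and array weights, other normalizations, filters, blocks and left-out arrays were tried as alternatives. Genes named are the 25 highest scores, those with a symbol, those called in a hyperphyllin comparison, or the 5 lowest p values, those at the limit, those with extreme levels, a further probe set or a close neighbour; genes without overlap in both genotypes, and gene families other than IQD, were named after their values were seen. The members and lists were chosen with earlier results of these data known.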

Additional observations from a re-analysis of the deposited data

How the results depend on the processing

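The direction of the genotype difference did not turn for any named gene of the 100 that was refitted under these limma settings. The rule kept the arrays of the genotypes apart in each medium, so leaving out or weighting arrays could not turn it. Nothing is read from this. The direction of the hyperphyllin change did not turn for AT1G61840, AT1G72870 or AT1G02570. The number of the 100 genes changed by hyperphyllin in wild type was 3, with 18 under array quality weights, 1 with only both groups of the comparison and 0 to 16 with an array left out. In amp1-13 it was 0, with 1 under array weights and 0 to 1 with an array left out. Averaged over genotypes it was 3, with 22 under array weights and 1 to 16 with an array left out. The interaction had 0 calls, with 1 under array weights and 0 to 0 with an array left out. Lower in amp1-13 in DMSO were 2 genes, with 5 under limma trend, 55 under array weights, 6 without dim probe sets (69 of the 100 genes tested), and 0 with all probe sets, quantile normalization, array medians subtracted, the replicate block or only both groups; leaving out an array gave 0 to 53. With hyperphyllin 3 were lower, with 23 under array weights, 0 with all probe sets, 0 with the replicate block, 13 with only both groups and 0 to 20 with an array left out. The cause was not tested. No share of all probe sets called is given here for array weights, limma trend, dim probe sets removed or only both groups. Higher counts under these settings therefore do not show whether the 100 genes gained more calls than other probe sets. Of the 100 genes, 9 stayed when the rule ranked differences of means in place of gaps, and 10 to 82 with an array left out; 81 stayed after quantile normalization and 99 with the probe set of least spread.

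Same-numbered arrays did not pair: the correlation of their deviations from group means ran from -0.281 to 0.295, and an array correlated best with its own number in 14 of 36 comparisons with another group. The replicate block left the 3 hyperphyllin calls in wild type and ended the 2 and 3 genotype calls. No signal over background was used, so how far the dim genes lie above background is unknown.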
